A study of Homo sapiens with 5 samples.

Results

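The genes described here encode 8 enzymes of cholesterol synthesis, HMGCS1, IDI1, FDPS, FDFT1, SQLE, LSS, CYP51A1 and DHCR7. They were chosen by name, and every probe annotated to them in the table of normalized values was taken. FDFT1 had no such probe and was dropped, which left 7 genes with 9 of the 14747 probes, with a pair of probes each for SQLE and DHCR7. All of the listed genes act in synthesis, so genes of cholesterol uptake were taken from a separate list given further down. The values came from Illumina HT-12 bead arrays of LX-2 cells, an established human hepatic stellate cell line, and stellate cells are the liver cells that form scar matrix. All cells had received 50 pmol of a biotin-carrying miR-25-3p duplex by lipofection 24 hours before lysis. The pull-down group (3 arrays) held what streptavidin beads had retained, and the control group (2 arrays) held total RNA of the lysed cells. The sample labels repeat the bead step for the controls, so that calling them lysate follows the series' design text and the study's methods. No array of cells without the duplex, or of a pull-down with another duplex, was analysed here. Capture through miR-25-3p and any other retention on the beads or loss during amplification can therefore not be told apart.

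Cells make cholesterol from acetyl-CoA through mevalonate, isoprenoid units, squalene and lanosterol. HMGCS1 acts at the start of this route, IDI1 and FDPS build the isoprenoid units, FDFT1 and SQLE make and oxidize squalene, LSS closes the ring system to lanosterol, and CYP51A1 and DHCR7 act on the way from lanosterol to cholesterol. When sterols run low, the transcription factor SREBP2 leaves the endoplasmic reticulum and raises most of these genes together, and the INSIG proteins hold it back when sterols are plentiful. Stellate cells are known for storing vitamin A and lipids, and cholesterol that builds up in them is known to make them more sensitive to TGF-β.

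The bait of the pull-down was miR-25-3p, whose mature sequence is shown because capture by base pairing would start from its seed. It is 22 bases long and lies on the minus strand at chr7:100093571-100093592 (GRCh38.p14, sequence from RefSeq), with the seed, bases 2 to 8, in capitals.
hsa-miR-25-3p: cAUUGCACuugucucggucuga
A transcript pairs with this seed through the 7 bases GUGCAAU. Transcript sequences were not used here, so the mRNAs of the 7 genes were not searched for it.

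None of the 9 probes passed the test. With limma over all 5 arrays and Benjamini-Hochberg adjustment over all probes, 0 of the 9 had an adjusted p under 0.05, where 14.7% of all probes did, and 0 of the 9 had an unadjusted p under 0.05, where 31.7% of all probes did. A call with a change of at least 2-fold was made for 5.9% of all probes and for 0 of the 9. The smallest adjusted p among the 9 was 0.163. Differences are given as pull-down minus lysate on the deposited log2 or log2-like scale, with the groups from the sample titles. The sample titles and the study's text disagree on direction. Genes that its text names as captured had lower values in the arrays titled as pull-down. The caption of its volcano plot gives a negative fold-change threshold. The study left a control sample out, and the titles give 3 pull-down and 2 control arrays, so the group sizes go with the titles. Why the signs differ was not tested, and higher and lower follow the titles for all genes below. ADAM17, FKBP14, IL10, LEP, NOTCH2NLA and PTGR2 had 7 probes, all with a negative difference (-2.41 to -0.25), and 6 of the 7 passed the test, where 7.09% of all probes passed as lower. The study selected these genes from its own analysis of this pull-down. That they passed was therefore largely set beforehand, and only their sign is used here. The 9 differences lay between -0.45 and 0.73, 4 above and 5 below 0, and their median size was 0.29 against 0.25 for all probes. The values are relative to the other probes of an array and do not measure how much of an mRNA was captured. With 3 arrays against 2, an exact two-sided permutation test cannot give a p below 0.1.

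The precision limits what these values can show. The median SE of the 9 differences was 0.21, against 0.15 for all probes, and 7 of the 9 had an SE above that of the median probe. At their own SEs the probes would have needed a difference of 0.58 to 1.24 to pass, where 0.62 sufficed at the median SE of all probes. The 95% interval of the difference reached a 2-fold change (a difference of 1) for 2 probes, those of IDI1 and CYP51A1, and stayed short of it for the other 7. Both groups are bulk RNA. By the study's methods a control was part of a lysate whose remainder went to the beads. The difference between the groups therefore does not measure how many cells held an mRNA or how much each held.

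**Figure D1:**
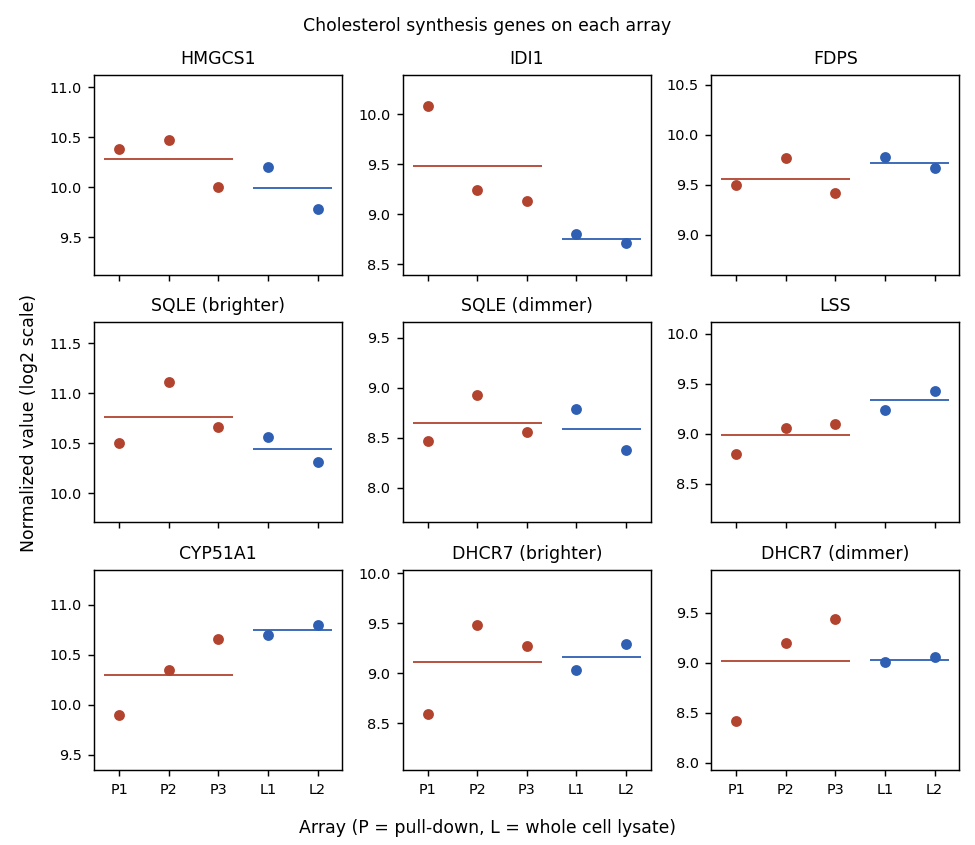
Normalized values (vertical axis, log2 scale, each panel spanning 2 units) of the 9 probes on pull-down arrays P1 to P3 (red) and lysate arrays L1 and L2 (blue), with lines at the group means. Only IDI1, LSS and CYP51A1 have groups that do not overlap, and pull-down array P1 lies far from P2 and P3 for IDI1 and for both DHCR7 probes.

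HMGCS1 encodes the cytosolic HMG-CoA synthase, which joins acetyl-CoA and acetoacetyl-CoA. Its values were 10.38, 10.47 and 10.00 in the pull-down (arrays 1, 2 and 3, an order kept for all genes below) and 10.20 and 9.78 in the lysate. The groups overlapped, since pull-down array 3 lay below lysate array 1. The difference was 0.29 (SE 0.20, 95% interval -0.20 to 0.79, limma adjusted p = 0.375), 0.09 without lysate array 2 and 0.50 without lysate array 1.

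IDI1 encodes the isomerase that turns isopentenyl diphosphate into dimethylallyl diphosphate, and it had the highest difference of the 9 probes. It measured 10.08, 9.24 and 9.13 in the pull-down and 8.80 and 8.71 in the lysate. All pull-down arrays were above both lysate arrays, and array 1 stood well above the other two. The difference was 0.73 (SE 0.30, 95% interval -0.01 to 1.47, limma adjusted p = 0.163), or 1.66-fold, and it was 0.43 without pull-down array 1 (limma adjusted p = 0.0625). FDPS, the synthase of farnesyl diphosphate, measured 9.50, 9.77 and 9.42 in the pull-down and 9.78 and 9.67 in the lysate. Its groups overlapped, with a difference of -0.16 (SE 0.15, 95% interval -0.52 to 0.20, limma adjusted p = 0.501), -0.26 without pull-down array 2 and -0.09 without pull-down array 3.

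SQLE encodes squalene epoxidase, a rate-limiting enzyme of the later steps. Its brighter probe measured 10.50, 11.11 and 10.66 in the pull-down and 10.56 and 10.31 in the lysate. Its dimmer probe measured 8.47, 8.93 and 8.56 in the pull-down and 8.79 and 8.38 in the lysate. On both probes pull-down array 2 was the highest array and lysate array 2 the lowest. The groups overlapped on both, with differences of 0.32 (SE 0.21, limma adjusted p = 0.356) and 0.07 (SE 0.20, limma adjusted p = 0.841). The first was 0.14 without pull-down array 2 and 0.19 without lysate array 2, and the second -0.07 and -0.13.

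LSS encodes lanosterol synthase, which folds oxidized squalene into the first sterol. It measured 8.80, 9.06 and 9.10 in the pull-down and 9.24 and 9.43 in the lysate, so that all pull-down arrays were below both lysate arrays. The difference was -0.35 (SE 0.14, 95% interval -0.71 to 0.01, limma adjusted p = 0.163). LSS and IDI1 had the same unadjusted p of 0.0529, with opposite signs.

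CYP51A1 encodes the demethylase that acts on lanosterol. It measured 9.90, 10.35 and 10.66 in the pull-down and 10.70 and 10.80 in the lysate. The groups did not overlap, but pull-down array 3 and lysate array 1 were only narrowly apart. The difference was -0.45 (SE 0.23, 95% interval -1.02 to 0.12, limma adjusted p = 0.245). It was the lowest of the 9 probes over all arrays, but -0.25 without pull-down array 1, where LSS was at -0.26.

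DHCR7 encodes the reductase of the last step to cholesterol. Its brighter probe measured 8.59, 9.48 and 9.27 in the pull-down and 9.03 and 9.29 in the lysate, and its dimmer probe 8.42, 9.20 and 9.44 against 9.01 and 9.06. On both probes pull-down array 1 was the lowest array and the highest array was another pull-down, so the pull-down arrays lay on both sides of the lysate. The differences were -0.05 (SE 0.28, limma adjusted p = 0.922) and -0.02 (SE 0.31, limma adjusted p = 0.977). Without pull-down array 1 they were 0.21 and 0.28.

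The groups did not overlap for 3 of the 9 probes, IDI1 above and LSS and CYP51A1 below the lysate, beside 51.5% of all probes (29% above and 22.4% below). Along the route, HMGCS1, IDI1 and SQLE had positive differences and the later enzymes LSS, CYP51A1 and DHCR7 negative ones, with FDPS, an early enzyme, also negative. No test was made of this order, and the signs of the dimmer SQLE probe and of both DHCR7 probes turned when single arrays were left out.

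**Figure D2:**
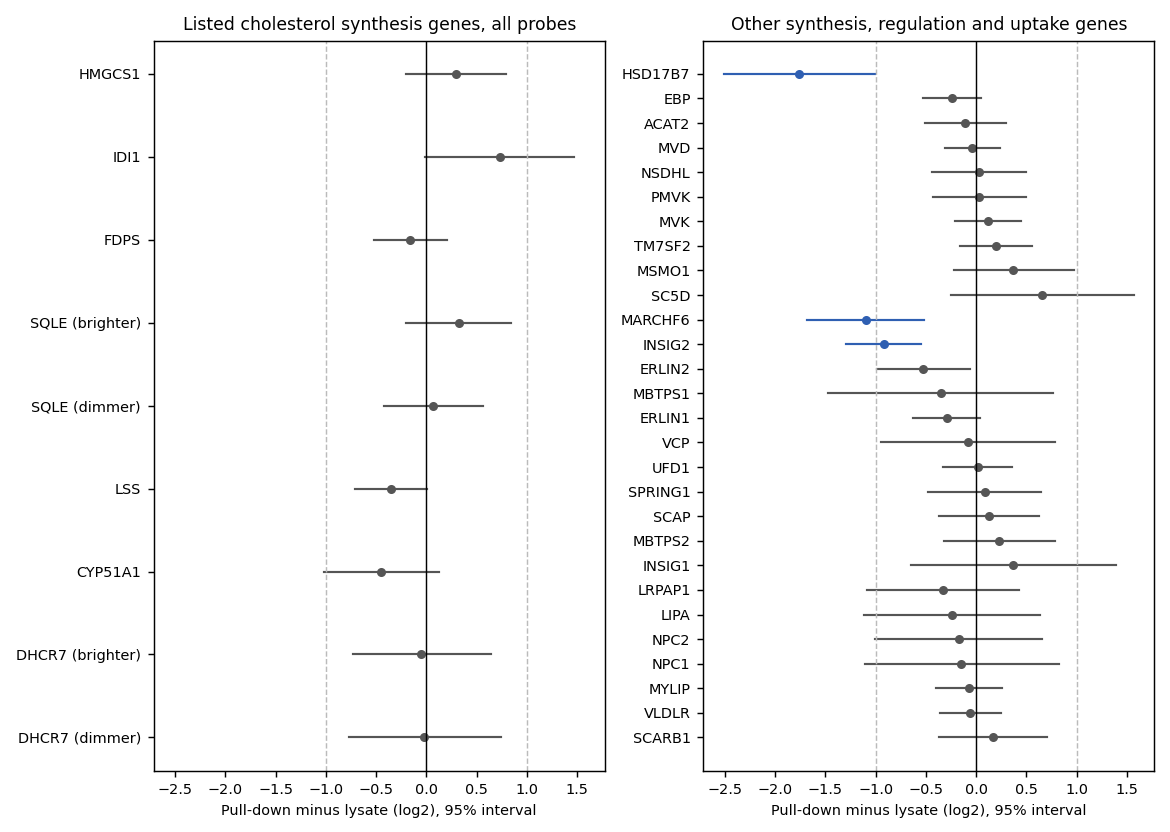
Difference of pull-down minus lysate (horizontal axis, log2 scale) with its 95% interval from limma, for all probes of the listed genes (left) and for the brightest probe of each other synthesis, regulation and uptake gene (right). Blue marks the genes that passed the test as lower, HSD17B7, MARCHF6 and INSIG2, grey those that did not, and dashed lines mark a 2-fold change.

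For every probe but that of LSS, the pull-down arrays spanned more than the difference between the group means. Pull-down array 1 stood apart from the other pull-downs, with Pearson correlations over all probes of 0.9632 and 0.9625, where arrays 2 and 3 correlated at 0.9854. It was the lowest of the 5 arrays for 4 of the 9 probes (LSS, CYP51A1 and both of DHCR7), where 23.6% of all probes were lowest on it. For IDI1 it was instead the highest. Without it, limma called 0 of the 9 probes and 2389 of all 14747. An unadjusted p under 0.05 was then seen for 1 of the 9 and for 5101 of all probes.

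A second pattern, noticed after the values were seen, ran across both groups for some of the probes. HMGCS1 was higher on lysate array 1 than on lysate array 2 by 0.41, and higher on pull-down array 2 than on pull-down array 3 by 0.47. The brighter SQLE probe differed by 0.25 and 0.45 in the same order and the dimmer one by 0.41 and 0.37, FDPS by 0.11 and 0.35, and IDI1 by 0.09 and 0.11. Both differences were positive for these 5 of the 9 probes, or 4 of the 7 genes by the brighter probe, as they were for 35.1% of all probes. LSS, CYP51A1 and the dimmer DHCR7 probe were negative in both, and the brighter DHCR7 probe had one of each sign.

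Steps of the same sign were seen in 4 of the 10 other synthesis genes, and 2 sterol-regulated genes are given that were picked after their values were seen. MSMO1, the methylsterol oxidase that acts after CYP51A1, differed by 0.40 between the lysates and by 0.67 between pull-downs 2 and 3 on its brighter probe, and by 0.12 and 0.73 on its dimmer one. INSIG1, which holds the SREBP complex in the endoplasmic reticulum and is itself raised by it, differed by 0.88 and 0.91 on its brighter probe and by 0.20 and 0.09 on its dim probe. INSIG1 measured 11.57, 11.35 and 10.44 in the pull-down and 11.20 and 10.31 in the lysate, so that its arrays of one group were further apart than its group means, which differed by 0.37 (SE 0.41, limma adjusted p = 0.585). Other synthesis genes went the opposite way, HSD17B7 by -0.15 and -0.49, NSDHL, a sterol dehydrogenase, by -0.12 and -0.22, and SC5D, a late desaturase, by -0.24 and -0.07. Among the 55 other sterol pathway genes measured, 19 had both differences positive, beside 35.1% of all probes. By the study's methods the control was taken from the lysate that then went to the beads, so that each lysate array may share a culture with a pull-down array. The labels do not say which, and the numbers do not settle it. The study left 1 control sample out for low signal, so the control numbers need not follow those of the pull-downs. Over all probes, the deviations from the group means correlated at 0.433 between pull-down 2 and lysate 1 and at 0.482 between pull-down 3 and lysate 2, the arrays that the steps set side by side. No test was made of this pattern.

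**Figure D3:**
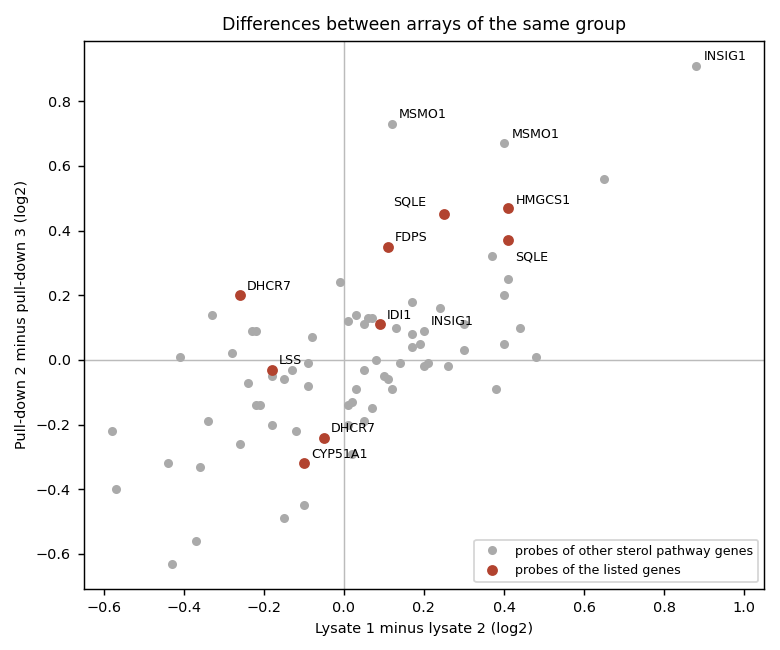
Difference between the lysate arrays (horizontal axis) and between pull-down arrays 2 and 3 (vertical axis), both on the log2 scale, for each probe of the listed genes (red) and of the other sterol pathway genes (grey). HMGCS1, FDPS, IDI1 and both SQLE probes lie in the upper right, with MSMO1 and INSIG1, while LSS and CYP51A1 lie in the lower left.

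Promoter sequences are shown for HMGCS1 and FDPS, members that shared these steps. Windows from 250 bases before to 50 after a start site were held by RefSeq (GRCh38.p14) for 6 of the 7 genes, 10 windows in all because HMGCS1, IDI1 and DHCR7 have several start sites. They were searched on both strands for TCACNCC, the core of the sterol response element bound by SREBP, and for CCAAT, the box bound by NF-Y, a factor that acts beside SREBP at many sterol genes. The first window is that of HMGCS1 (chr5:43313363-43313662, minus strand) and the second that of FDPS (chr1:155308616-155308915, plus strand), with the matches in capitals, where ATTGG is CCAAT read on the opposite strand.
HMGCS1: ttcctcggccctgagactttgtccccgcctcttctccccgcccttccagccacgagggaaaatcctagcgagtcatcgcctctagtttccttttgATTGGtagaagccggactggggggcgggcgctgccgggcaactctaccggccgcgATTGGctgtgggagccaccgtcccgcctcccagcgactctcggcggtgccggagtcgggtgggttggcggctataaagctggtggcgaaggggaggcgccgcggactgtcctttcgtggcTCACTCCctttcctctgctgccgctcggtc
FDPS: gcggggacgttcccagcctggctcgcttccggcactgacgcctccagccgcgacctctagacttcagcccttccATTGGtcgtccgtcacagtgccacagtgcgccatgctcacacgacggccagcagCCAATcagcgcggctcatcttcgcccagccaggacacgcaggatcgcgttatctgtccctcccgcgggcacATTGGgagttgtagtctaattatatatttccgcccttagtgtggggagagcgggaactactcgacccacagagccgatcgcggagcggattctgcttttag
TCACNCC was found in 3 of the 10 windows, of HMGCS1 and IDI1, and in 15.5% of all 35116 windows. The windows of HMGCS1 overlap and share 1 match. CCAAT was found in 6 of the 10, of 5 of the 6 genes, and in 34.6% of all windows. It was found in the window of LSS and in 1 of DHCR7, and CYP51A1 had neither motif. A match is a description of the letters and not a measured site.

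The members' differences were set beside those of 55 other measured genes of sterol metabolism in 5 lists, each gene by its brightest probe. Of these 55, 5 passed the test, 2 higher and 3 lower in the pull-down, where 7.64% of all probes were higher and 7.09% lower. Their median difference was -0.04, that of the 7 listed genes -0.05 and that of all probes 0.04. In the other steps of synthesis, 1 of 10 genes passed, HSD17B7, the ketoreductase that works on sterols after MSMO1. It measured 11.23, 11.79 and 12.28 in the pull-down and 13.46 and 13.60 in the lysate. All pull-down arrays were below the lysate, and the difference of -1.76 (SE 0.30, limma adjusted p = 0.0214) was 3.39-fold. HSD17B7 has closely related pseudogenes, so its probe may read more than 1 transcript.

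The other synthesis genes gave values that did not pass. The next lowest was EBP, an isomerase of late sterols, at -0.24 (limma adjusted p = 0.22), and the highest were SC5D at 0.66 (limma adjusted p = 0.279) and MSMO1 at 0.37 (limma adjusted p = 0.35). SC5D measured 8.36 on pull-down array 1 and 9.44 and 9.52 on the others, and 8.33 and 8.56 in the lysate. The median of the 10 genes was 0.03.

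Of 11 genes that regulate the pathway, 2 were lower and 0 higher, where 7.09% and 7.64% of all probes were. INSIG2, the second INSIG protein, measured 9.52, 9.85 and 9.69 in the pull-down and 10.73 and 10.49 in the lysate, with a difference of -0.92 (SE 0.15, limma adjusted p = 0.0193). MARCHF6, a ubiquitin ligase of the endoplasmic reticulum that marks squalene epoxidase for degradation, measured 10.46, 11.12 and 11.14 in the pull-down and 12.08 and 11.93 in the lysate. Its difference was -1.10 (SE 0.23, limma adjusted p = 0.0342), and its second probe gave -0.71 (limma adjusted p = 0.264). The groups of both genes were fully separated. INSIG1 was highest at 0.37, followed by MBTPS2, a protease that releases SREBP, at 0.23 (limma adjusted p = 0.533).

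Of 7 genes of cholesterol uptake and lysosomal release, limma called 0 (14.7% of all probes), and 0 had an unadjusted p under 0.05 (31.7% of all probes). The differences of the 7 genes ran from -0.33 to 0.17. The groups overlapped for all 7, while they did not for 51.5% of all probes. LRPAP1, a chaperone of lipoprotein receptors, was at -0.33 (limma adjusted p = 0.507) and LIPA, the lysosomal acid lipase that frees cholesterol from its esters, at -0.24 (limma adjusted p = 0.687). SCARB1, the receptor of high-density lipoprotein, was at 0.17 (limma adjusted p = 0.638), and the lipoprotein receptor gene VLDLR at -0.06 (limma adjusted p = 0.781).

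Of 15 genes of sterol transport, storage and efflux, 1 was higher and 0 were lower, where 7.64% and 7.09% of all probes were. TSPO, a cholesterol-binding protein of the outer mitochondrial membrane, measured 12.54, 12.36 and 12.29 in the pull-down and 10.76 and 10.85 in the lysate. All pull-down arrays lay above the lysate, and the difference was 1.59 (SE 0.13, limma adjusted p = 0.00769), or 3.02-fold. The second probe of TSPO gave 0.96 (limma adjusted p = 0.0576). GRAMD1A, a sterol carrier between membranes, was next at 0.17 (limma adjusted p = 0.759), and the lowest were the nuclear receptor gene RXRA at -0.59 (limma adjusted p = 0.0698) and the cholesterol efflux pump gene ABCA1 at -0.53 (limma adjusted p = 0.146). A dimmer probe of STARD13, a protein with a lipid-binding START domain, was lower at -0.51 (limma adjusted p = 0.0318) where the probe used gave -0.10 (limma adjusted p = 0.816).

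Of 12 genes that use isoprenoid units outside sterol synthesis, 1 was higher and 0 were lower, where 7.64% and 7.09% of all probes were. COQ2, which attaches the isoprenoid tail of coenzyme Q, measured 10.93, 11.04 and 11.23 in the pull-down and 9.96 and 10.29 in the lysate. The groups were separated, with a difference of 0.94 (SE 0.16, limma adjusted p = 0.0209). RABGGTB, a subunit of the enzyme that prenylates RAB proteins, was at 0.42 (limma adjusted p = 0.167), and the lowest were PGGT1B, a subunit of a protein prenyltransferase, at -0.20 (limma adjusted p = 0.377) and the tRNA-modifying enzyme gene TRIT1 at -0.11 (limma adjusted p = 0.73). The median of the 12 was 0.22, and 5 of them were separated upward, where 29% of all probes were.

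**Figure D4:**
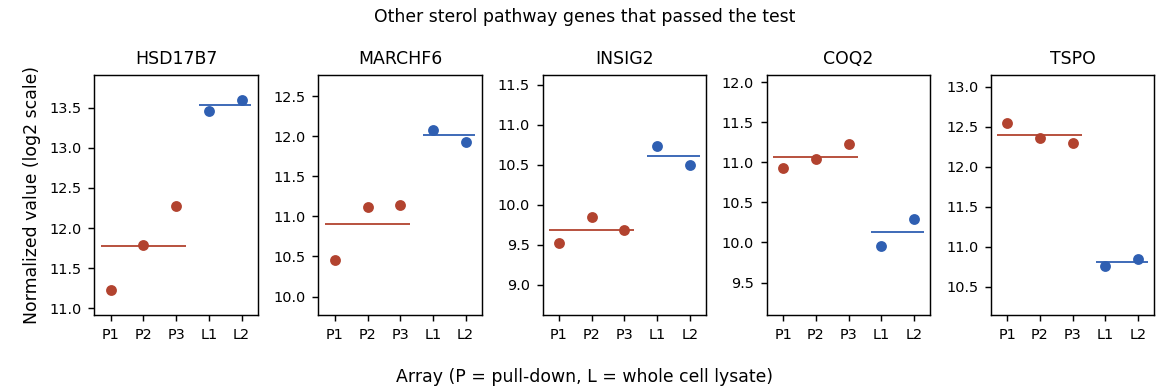
Normalized values (vertical axis, log2 scale, each panel spanning 3 units) of the 5 other sterol pathway genes that passed the test, on pull-down arrays P1 to P3 (red) and lysate arrays L1 and L2 (blue), with lines at the group means. HSD17B7, MARCHF6 and INSIG2 lie lower and COQ2 and TSPO higher in the pull-down, with no overlap of the groups.

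The 5 calls depended on which arrays were used, and so did the number of calls over all probes, 2172 in the main fit. Without pull-down array 2 limma called 1 of the 55 genes, TSPO, and 387 of all 14747 probes. Without pull-down array 3 it called 2 genes, TSPO and HSD17B7, and 912 of all probes. Without pull-down array 1 it called 7 genes and 2389 of all probes. The 7 were these 5 with SC5D and VCP, a segregase of the endoplasmic reticulum degradation route. With lysate array 1 left out, the differences of HSD17B7, MARCHF6, INSIG2, TSPO and COQ2 were -1.84, -1.03, -0.80, 1.55 and 0.77. With lysate array 2 left out they were -1.69, -1.17, -1.04, 1.64 and 1.10. Either way only a single lysate array remained, so only sizes are given. Leaving out an array could not turn the sign of these 5 differences, since the groups of each gene did not overlap.

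Over the 5 arrays the mean profile of the 7 listed genes, each by its brightest probe and centred on its own mean, was nearly flat. Its values were -0.09, 0.16 and -0.02 for the pull-downs and -0.01 and -0.05 for the lysates. This mean averages opposite moves: IDI1 was highest on pull-down array 1, where LSS, CYP51A1 and DHCR7 were lowest. The named genes outside the lists with the closest centred profile were GNE, CELF1 and TAFAZZIN, at Euclidean distances of 0.0347, 0.0458 and 0.0535 over the 5 arrays. Each of these was itself nearly flat, with centred values from -0.09 to 0.16.

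The label of the cells was checked against markers. Of 15 stellate cell and fibroblast markers, 12 had a probe, with lysate means from 8.43 (COL1A2 and PDGFRB) to 14.13 (VIM), where all values lay between 7.57 and 14.76. The stellate markers DES and LRAT had none and were not analysed here. Of 10 hepatocyte markers, 2 had a probe, ALB at 8.52 and SERPINA1 at 7.83 in the lysate. Of 6 leucocyte and macrophage markers, 2 had a probe, CD14 at 8.02 and CD68, a lysosomal protein that other cells also make, at 12.14. PTPRC, which marks leucocytes, had none. Of 5 endothelial markers, 1 had a probe, TEK at 7.96, and of 4 cholangiocyte markers 1 had a probe, SOX9 at 9.09. ALB and SOX9 thus lay above COL1A2 and PDGFRB.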

How the data were processed

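The authors exported the signals of Illumina HT-12 arrays from GenomeStudio and deposited values normalized with lumi on a log2 or log2-like scale, for a filtered set of 14747 probes. The sources used here do not say which of a plain log2 and lumi's own variance-stabilizing transform was applied. The study describes the genes it plotted as detected above the background of the array, with no threshold given, and versions of lumi and limma, both named in the submitters' processing notes, are not given either. Under the variance-stabilizing transform, changes of dim probes are understated. The non-normalized table was not used, because its 10 value columns carry names that match no sample label. Detection and background were therefore not examined. The number of arrays limits the precision. The labels number the replicates, and the study's methods call them independent biological replicates.

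Probes were named from GEO's platform annotation, which gives 1 symbol for 11970 of them, and 11963 of these had a gene ID in the RefSeq table of GRCh38.p14. The groups were compared by lmFit and eBayes of limma 3.58.1 under R 4.3.3, since the study's methods name limma. Two-sided p-values were adjusted by Benjamini-Hochberg for all 14747 probes, with a threshold of 0.05. They set each difference against the spread between these arrays, which the main fit treats as independent although some may share a culture. The moderated test had 5.75 degrees of freedom. The fit was also run on simulated arrays with independent noise. They held no shared cultures and no array set apart, so that run does not bear on these limits. A gene with several probes entered a list by the probe with the highest mean, named here the brightest, and all probes of the 7 listed genes were given. In the other lists the genes that passed and the 2 highest and 2 lowest were named. Alternatives were median scaling, cyclic loess, a filter on dim probes, other priors of eBayes, the replicate number as a block, the mean of a gene's probes, and leaving out each array. The members and lists were chosen with earlier results of these data known.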

Additional observations from a re-analysis of the deposited data

How the results depend on the processing

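Limma called 0 of the 9 probes under each of 11 alternatives and with 1 probe per gene. At an unadjusted p under 0.05 the count was at most 2. Of 99 values of single probes under an alternative, 93 kept their sign. The 6 that did not came from leaving out an array, and the cause was not tested. For IDI1, LSS and CYP51A1 leaving out an array could not turn the sign, since their groups did not overlap. The dimmer SQLE probe ranged from -0.13 to 0.27 with an array left out, the brighter DHCR7 probe from -0.23 to 0.21 and the dimmer one from -0.23 to 0.28. Over all probes limma called 2172, and between 0 (2958 at an unadjusted p under 0.05, without lysate array 1) and 2389 (without pull-down array 1) with an array left out. Of the 55 other genes 0 to 7 were called in these fits, and 4 with the mean of each gene's probes.

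With the replicate number as a block, limma called 215 probes, 0 of the 9 and 2 of the 55 (HSD17B7 and TSPO). The numbers are not known to pair the samples: the deviations from the group means correlated over all probes at 0.039 for the arrays numbered 1 and at -0.433 for those numbered 2. They correlated at 0.433 for pull-down 2 with lysate 1 and at 0.482 for pull-down 3 with lysate 2. With 2 lysates these values mirror those of the other lysate. Whether these arrays share a culture was not tested, and no fit was made on pairs read from the data. Under median scaling the median difference of all probes was 0.05 and under cyclic loess 0.00.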
